A study of Homo sapiens with 3 samples.

Results

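The cytosolic ribosomal protein genes encode the protein components of the 60S and 40S subunits of the ribosome that translates nuclear messenger RNA. They were taken as the genes with a probe set annotated to a single symbol of the form RPL, RPS or RPLP followed by a number, with or without A, or to RPSA, RPS4X or FAU. This gave 68 genes out of 18239 named genes, 43 of the 60S and 25 of the 40S subunit, measured by 195 of 49386 probe sets. RPLP0, RPS27A and RPL15 are among the ribosomal protein genes not analysed here. The genes were chosen by name and not by any measured value.

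Messenger RNA was measured on Affymetrix 3' expression arrays in A498, an epithelial cell line from a human kidney carcinoma. There were 3 arrays, 1 per group. The first group was exposed to E. coli 83972, a strain known for colonizing the urinary tract without symptoms. The second received 60 µM DRB, a nucleoside analogue that inhibits the elongation kinase CDK9 and so blocks productive elongation by RNA polymerase II. The control received 0.08% DMSO, a solvent that the labels state for the control only. All 3 cultures were in serum-free medium with gentamicin for 4 h, and all are numbered experiment 2. The labels disagree on the bacterial concentration, so none is given. A498 is 1 established line, and an array reports the RNA of a whole culture, in which fewer cells of a type and less RNA per cell cannot be told apart. The comparison addresses how transcripts known for long half-lives stood while transcription elongation was blocked.

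Ribosomal protein messages are among the most abundant and most stable messenger RNAs of a growing cell, so that hours without new synthesis deplete them little compared with short-lived messages. Most of them belong to the TOP class, whose transcripts begin with a C followed by a run of pyrimidines (5' terminal oligopyrimidine tract). Through this tract the kinase mTORC1 and the binding protein LARP1 control translation of the message, and LARP1 also guards its stability. Their promoters commonly lack a TATA box and are bound by ETS-family factors such as GABP, by SP1 and by YY1.

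The tract is visible at the annotated starts of these genes. The windows below, from RefSeq promoters on GRCh38.p14, run from 25 bases before the start to 15 bases from it, with the tract in capitals. They are shown for genes whose array values are described further on, including RPS26 and RPL27, which have no tract by the criterion used.
RPLP2 (chr11:809942-809981, plus strand): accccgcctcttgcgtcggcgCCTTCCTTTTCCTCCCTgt
RPLP1 (chr15:69452793-69452832, plus strand): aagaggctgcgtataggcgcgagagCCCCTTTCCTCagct
RPL36 (chr19:5690270-5690309, plus strand): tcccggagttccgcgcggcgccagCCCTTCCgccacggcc
RPL35A (chr3:197950165-197950204, plus strand): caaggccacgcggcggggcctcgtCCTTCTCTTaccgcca
RPL39 (chrX:119791616-119791655, minus strand): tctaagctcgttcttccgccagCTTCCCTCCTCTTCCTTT
RPL24 (chr3:101686704-101686743, minus strand): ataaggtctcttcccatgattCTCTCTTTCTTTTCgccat
RPS25 (chr11:119018329-119018368, minus strand): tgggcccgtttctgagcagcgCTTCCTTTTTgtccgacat
FAU (chr11:65122120-65122159, minus strand): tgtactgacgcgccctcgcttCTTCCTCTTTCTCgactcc
RPS26 (chr12:56041893-56041932, plus strand): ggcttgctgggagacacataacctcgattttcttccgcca
RPL27 (chr17:42998394-42998433, plus strand): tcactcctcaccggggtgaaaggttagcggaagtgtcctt

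The criterion was a C followed by at least 4 pyrimidines, beginning within 5 bases of the annotated start. The promoter table matched 58 of the 68 genes with 69 starts, and 54 of those starts (78.3%) met it, against 22.3% of 13990 starts of all kept genes. By gene, 50 of 58 had at least 1 such start, and the median tract was 11 bases long, from 5 to 22. The 8 genes without one were RPL6, RPL9, RPL17, RPL27, RPS4X, RPS15, RPS26 and RPS29. In the 300-base windows searched on both strands, the ETS-type letters CCGGAAG stood at 36.2% of the members' starts against 16.1% of all starts, and the YY1-type letters AAGATGGC at 10.1% against 4.59%. The SP1-type letters GGGCGG stood at 56.5% of the members' starts against 64.9% of all. TATAAA, searched on the plus strand, stood at 1.45% of the members' starts against 4.27% of all. A match describes letters in a window and not a bound site.

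Levels are the deposited RMA probe-set values, on a log2 scale, on which 1 unit is a 2-fold difference. Each gene is represented by the brightest of its probe sets (by mean of the 3 values) and was kept when its highest value reached 4.88, the median of all values. Of the 68 genes 67 passed, and 11653 of all 18239 did. RPL27A, a 60S protein, was the member that did not pass: the 1 probe set used for it read 3.08 with E. coli 83972, 4.11 with DRB and 3.63 in the control. Since each group is a single array, no replicate spread exists, differences were not tested and no p-value appears; precision is limited by the number of arrays.

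The ribosomal protein genes differed little between the arrays. The median log2 difference over the 67 kept genes was -0.03 between the E. coli 83972 and control arrays, 0.05 between the DRB and control arrays, and -0.07 between the E. coli 83972 and DRB arrays. Over all kept genes the medians were the same to 2 decimals, -0.03, 0.05 and -0.07. The match depended on the bright probe sets: without those within 1 of the highest value, the medians of the 44 genes left were -0.07, 0.09 and -0.14, against -0.03, 0.05 and -0.08 over all genes. Their spread was narrower than that of all kept genes: the SD over genes was 0.079, 0.055 and 0.10 in the 3 comparisons, against 0.40, 0.64 and 0.76 over all kept genes. Neither this comparison nor those with gene lists below were matched for level. Most members were bright, and spread was narrow in other bright genes too. At a mean level of 12 and above, the DRB quartiles were -0.05 and 0.04 for 184 probe sets of other genes. For the 103 of ribosomal protein genes they were 0.03 and 0.07.

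None of the 67 kept ribosomal protein genes reached a 2-fold difference in any comparison, while RPL27A, below the filter on all 3 arrays, differed by -1.04 between the E. coli 83972 and DRB arrays. With DRB against control, 1185 of all kept genes (10.2%) were at least 2-fold lower and 15 (0.129%) at least 2-fold higher. With E. coli 83972 against control the shares were 1.91% higher and 0.652% lower, and for E. coli 83972 against DRB they were 12.3% higher and 0.386% lower. At the smaller threshold of 0.5 in either direction, 0 of 67 members were counted with E. coli 83972 against control, where 11.5% of all kept genes were, and 0 of 67 with DRB against control, where 24.3% were. For E. coli 83972 against DRB 1 member was counted, RPL35A, against 31.0% of all kept genes. These counts rest on the brightest probe sets. Among the 34 kept member probe sets of mean level under 10, counts at 0.5 were 5, 8 and 19 in the same order. Of these 34, 4 reached the filter on 1 array alone.

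The DRB range of the members ran from -0.05 for RPL5, a 60S protein that assembles with 5S RNA, to 0.34 for RPL36. Of all kept genes 39.7% lay below that lowest member and 13.2% above that highest one. With E. coli 83972 the range ran from -0.48 for RPL35A to 0.08 for RPLP2, with 5.65% of all kept genes below it and 32.4% above it.

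**Figure D1:**
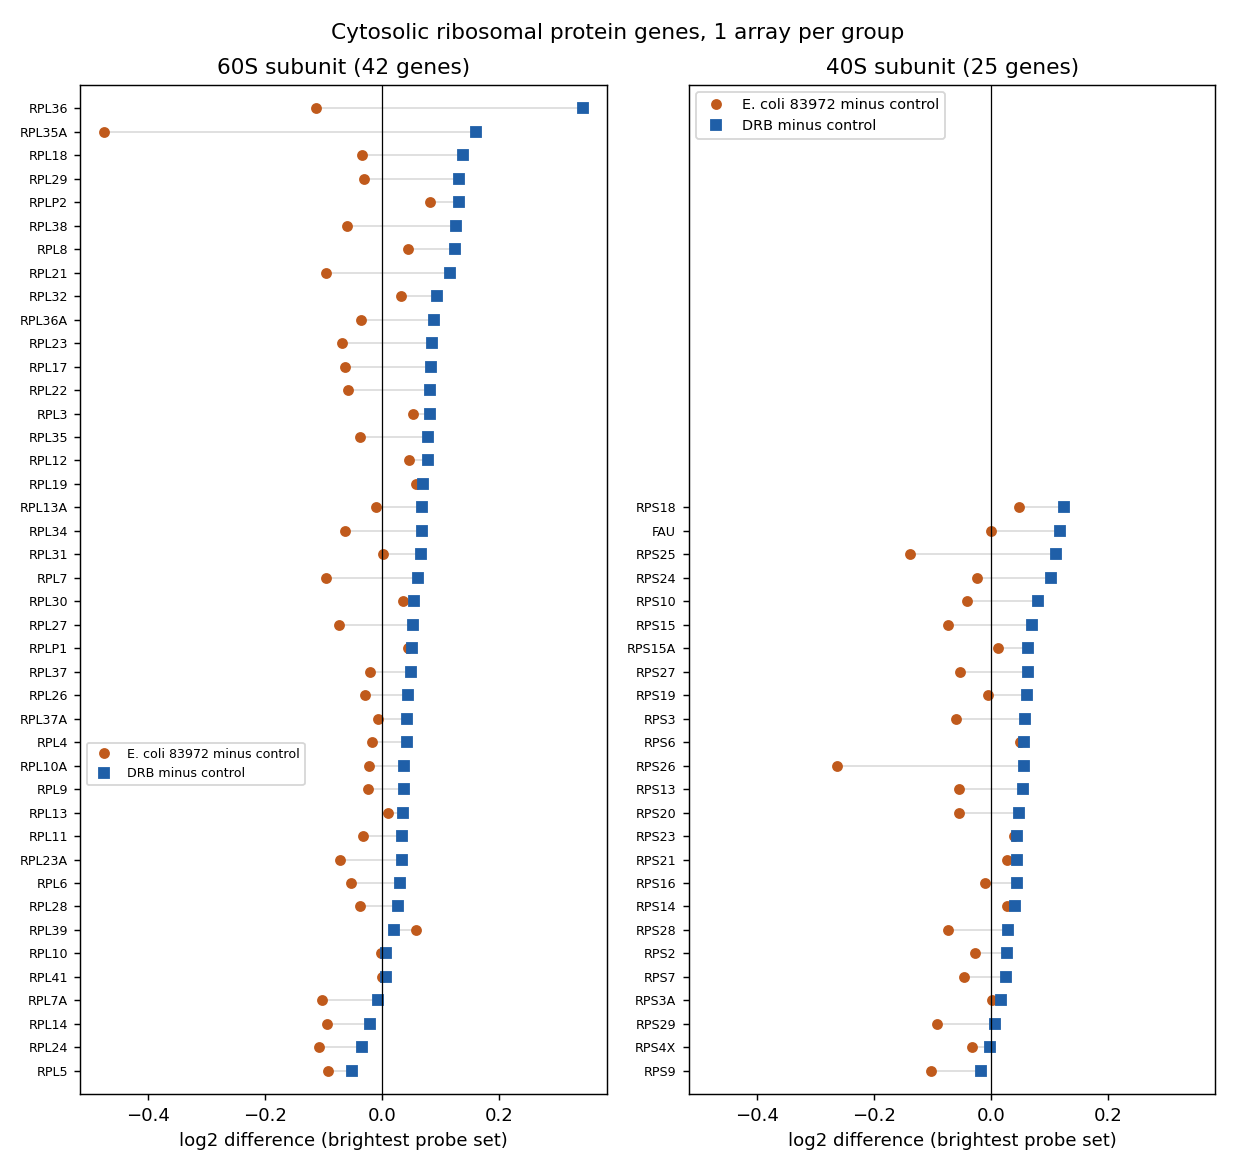
Log2 difference of each of the 67 kept ribosomal protein genes (rows, 42 of the 60S and 25 of the 40S subunit) for E. coli 83972 minus control (circles) and DRB minus control (squares), 1 array per group, each gene by its brightest probe set and ordered by its DRB value. Nearly all points lie within a narrow band around 0, with RPL35A (-0.48 with E. coli 83972), RPS26 (-0.26 with E. coli 83972) and RPL36 (0.34 with DRB) farthest out. RPL35A and RPL36 are the only genes shown by a probe set of mean level under 10.

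Although small, the differences were ordered alike in most members. The DRB array gave the highest of the 3 values for 60 of 67 genes, the control array for 6 and the E. coli 83972 array for 1, RPL39. The E. coli 83972 array gave the lowest value for 48 genes, the control array for 19 and the DRB array for 0. DRB was above control for 61 of 67 members, against 55.8% of all kept genes. E. coli 83972 was above control for 19 of 67, against 45.2% of all kept genes, and above DRB for 1 of 67, against 42.6%. Other scalings turned these counts: with the arrays centred on the poly-A spike-in controls DRB was above control for 0 of 67 and E. coli 83972 above DRB for 66, and after a loess correction for level E. coli 83972 was above control for 34. These members share their arrays, so the counts say nothing about other cultures. Both subunits were alike: the medians were -0.03 for both with E. coli 83972 against control, and 0.06 for 60S against 0.05 for 40S genes with DRB against control.

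The differences behind these counts stand beside a technical error whose size depends on the probe sets used. For 51 members, the mismatch between 2 probe sets (the brightest pair kept) was turned into an SD of a single log2 difference. Its robust value was 0.047 between the E. coli 83972 and control arrays, 0.037 between the DRB and control arrays, and 0.045 between the E. coli 83972 and DRB arrays. Plain SDs were 0.067, 0.096 and 0.13. Over all 6317 genes with a pair of probe sets the robust values were 0.12, 0.15 and 0.17. For 70 genes with a pair at a mean level of 12 and above, they were 0.027, 0.023 and 0.028. Variation from culture to culture, or from one extraction or hybridization to the next, is not part of these SDs.

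Most members sat close to the top of the scale. The median level of the 67 genes was 12.55 on the E. coli 83972 array, 12.62 on the DRB array and 12.57 on the control array, while the highest value of any probe set was 13.20, 13.22 and 13.29 on the same arrays. Within 1 log2 unit of that highest value lay 52, 54 and 50 of the 67 genes. The median of all probe sets was 4.90, 4.88 and 4.87. What the nearness to the highest value does to the size of a difference was not tested directly, and the values by level are given further on.

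By brightest probe set, the largest differences belonged to a few genes. RPL35A, a 60S protein that is mutated in some families with Diamond-Blackfan anaemia, read 9.21 with E. coli 83972, 9.84 with DRB and 9.68 in the control. The E. coli 83972 array was thus the low one, by 0.48 against control (1.39-fold) and by 0.63 against DRB (1.55-fold). A second kept probe set of RPL35A read 5.71 with E. coli 83972, 6.46 with DRB and 5.85 in the control, again lowest with E. coli 83972, and here 0.62 higher with DRB than in the control. Over these 2 probe sets the mean difference was -0.31 ± 0.24 (SD) with E. coli 83972 and 0.39 ± 0.32 with DRB. A further, brighter probe set that the annotation gives to RPL35A and ZNF391 together, and which therefore names neither, read 12.56, 12.68 and 12.60, a difference of only -0.04 with E. coli 83972 against control.

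RPL36, a 60S protein, read 9.62 with E. coli 83972, 10.07 with DRB and 9.73 in the control. DRB was the high array, by 0.34 on the log2 scale or 1.27-fold. Its 3 probe sets agreed in direction, with a mean of 0.27 ± 0.06 (SD) with DRB and -0.18 ± 0.07 with E. coli 83972, both against control. RPL35A and RPL36 were the only kept members whose brightest single-gene probe set had a mean level under 10. The 34 kept member probe sets under 10, theirs included, had medians of 0.35 with DRB and -0.20 with E. coli 83972 against control. Between the E. coli 83972 and DRB arrays their median was -0.51. The DRB value of RPL36 was thus near the median of dim member probe sets.

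RPS26, a 40S protein near the messenger RNA exit channel and another Diamond-Blackfan anaemia gene, read 11.63 with E. coli 83972, 11.95 with DRB and 11.89 in the control. The E. coli 83972 value was low by 0.26 against control, and its other kept probe set was low by 0.44. RPS25, a 40S protein required for initiation at some viral internal ribosome entry sites, read 11.89 with E. coli 83972, 12.14 with DRB and 12.03 in the control. It stood between a DRB value 0.11 above and an E. coli 83972 value 0.14 below the control.

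The next lowest members with E. coli 83972 against control lay in a narrow range. RPL24, a 60S protein at the bridge between the subunits, differed by -0.11, RPL7A and RPS9 by -0.10 each, and RPL21, RPL7 and RPL14 by -0.10 each. At the other end, RPLP2 differed by 0.08, RPL39 and RPL19 by 0.06 each, and RPL3, RPS6, RPS18, RPL12, RPL8, RPLP1 and RPS23 by 0.04 to 0.05. RPL3 helps shape the peptidyl transferase centre and RPS6 is the substrate of the S6 kinases downstream of mTORC1. Beyond RPL35A and RPS26, then, no member differed by more than 0.14 with E. coli 83972.

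With DRB against control the highest members after RPL36 were RPL35A at 0.16, RPL18 at 0.14, RPL29, RPLP2, RPS18 and RPL38 at 0.13 each, RPL8 and FAU at 0.12 each, and RPL21 at 0.12. RPL38 is known from mouse for its part in translating Hox messages. At the lowest end were the 6 members below 0, RPL5 at -0.05, RPL24 at -0.04, RPL14 and RPS9 at -0.02, RPL7A at -0.01 and RPS4X at -0.002, followed by RPL41, RPL10, RPS29 and RPS3A at 0.01 to 0.02. The 5 lowest were also among the lower members with E. coli 83972, at -0.09 to -0.11, and both comparisons share the control array, which gave these 5 genes their highest value.

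For E. coli 83972 against DRB, the lowest members after RPL35A were RPL36 at -0.46, RPS26 at -0.32, RPS25 at -0.25, RPL21 at -0.21, RPL38 at -0.19, RPL18 at -0.17 and RPL29, RPL7 and RPL23 at -0.16 each. RPL39 was the only member above 0, at 0.04. RPS23, RPS6, RPL41, RPLP1 and RPL10 lay within 0.01 of 0.

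The P stalk, a flexible arm of the 60S subunit that recruits elongation factors, is built from RPLP0 with pairs of RPLP1 and RPLP2. RPLP1 read 12.81 with E. coli 83972, 12.82 with DRB and 12.77 in the control, and RPLP2 read 12.32, 12.37 and 12.24 on the same arrays. Both were lowest in the control, by 0.04 and 0.05 for RPLP1 and by 0.08 and 0.13 for RPLP2. FAU encodes the 40S protein eS30 fused to a ubiquitin-like protein that is cleaved off. It read 12.07 with E. coli 83972, 12.19 with DRB and 12.07 in the control, so only the DRB array stood apart, by 0.12.

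Several ribosomal proteins bind the p53 ligase MDM2 when ribosome assembly is disturbed. Of the 6 kept genes of this group, RPL5, RPL11, RPL23, RPL26, RPS3 and RPS7, all were lower with E. coli 83972 than in the control, by 0.03 to 0.09, and 5 were higher with DRB than in the control. RPL5, the exception, read 12.20 with E. coli 83972, 12.24 with DRB and 12.29 in the control. RPL11, its partner in the 5S particle, read 12.56, 12.63 and 12.59. The group medians were -0.05 with E. coli 83972 and 0.04 with DRB. Among all 67 kept members 48 were lower than control with E. coli 83972 and 61 higher with DRB. Of all 11653 kept genes, 6380 were lower with E. coli 83972 and 6505 higher with DRB. MDM2 itself, a short-lived message, read 8.06 with E. coli 83972, 6.27 with DRB and 8.64 in the control. The p53 target CDKN1A read 10.70, 9.80 and 11.02, so that both were lowest with DRB, with differences of -2.36 and -1.22 from control.

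The proteins lining the exit of the nascent peptide tunnel, RPL4, RPL17, RPL19, RPL23A, RPL26, RPL31, RPL35 and RPL39, had all 8 genes above control with DRB, by 0.02 to 0.08. With E. coli 83972 against control 3 of 8 were above 0. Among all 67 kept members 61 were above control with DRB and 19 with E. coli 83972, beside 55.8% and 45.2% of all kept genes. RPL39, which lies inside the tunnel, read 12.89 with E. coli 83972, 12.86 with DRB and 12.83 in the control and was the only member highest with E. coli 83972. The kept members included 16 genes mutated in Diamond-Blackfan anaemia, with medians of -0.04 with E. coli 83972 and 0.06 with DRB. RPL31 was the only one of these above control with E. coli 83972, by 0.0009, and RPL5 the only one below control with DRB.

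Genes with and without a pyrimidine tract at an annotated start differed little. With DRB against control the median was 0.06 for 49 kept genes with a tract, from -0.04 to 0.34, against 0.04 for the 8 without, from -0.002 to 0.08. With E. coli 83972 against control the medians were -0.02 with a tract and -0.07 without, and all 8 genes without a tract were below 0. Also below 0 were 48 of all 67 kept members and 6380 of all 11653 kept genes. RPS26 and RPL27 are the examples printed above, at -0.26 and -0.07. In the RPS26 window a C followed by 4 pyrimidines begins just beyond the 5-base limit, so the split depends on the criterion.

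Differences depended on which probe set was read. Among the 167 kept probe sets of the 67 genes, those with a mean level under 10 numbered 34, from 20 genes. Of these 34, 4 reached the filter on 1 array alone, which favours large differences. The median difference of the 34 was 0.35 with DRB and -0.20 with E. coli 83972, both against control, while the E. coli 83972 and DRB arrays differed by -0.51. The 22325 probe sets of other genes in that range had medians of 0.09 and -0.01 against control and -0.10 against DRB. In the range from 10 to 12, 30 ribosomal protein probe sets had medians of 0.08 with DRB and -0.06 with E. coli 83972, close to the 0.07 and -0.07 of 1704 probe sets of other genes. At 12 and above, 103 probe sets had medians of 0.05 and -0.03, and these were 103 of all 287 kept named probe sets at that level.

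The direction of the ribosomal protein probe sets was alike in the 3 ranges, though with E. coli 83972 at 12 and above it was close to that of other genes. DRB was above control for 30 of 34 ribosomal protein probe sets under 10, where 58.8% of all kept named probe sets were, for 26 of 30 from 10 to 12, where 67.0% were, and for 92 of 103 at 12 and above, where 63.4% were. E. coli 83972 was above control for 4 of 34, where 48.0% of all were, for 5 of 30, where 31.1% were, and for 30 of 103, where 32.4% were. A filter on the mean of the 3 values, chosen after seeing the data, left 31 of the 34 probe sets under 10. DRB was above control for 28 of these and E. coli 83972 for 4, with medians of 0.34 and -0.17. Of 20935 probe sets of other genes filtered in the same way, 58.4% and 47.7% were above control. At 12 and above, the 184 probe sets of other genes had medians of -0.003 with DRB, where 48.9% of them lay above 0, and -0.02 with E. coli 83972. With E. coli 83972 34.2% of these 184 lay above 0, against 29.1% of the 103 ribosomal protein probe sets. The spread narrowed with level in both sets: at 12 and above the quartiles with DRB were 0.03 and 0.07 for ribosomal protein probe sets and -0.05 and 0.04 for those of other genes.

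**Figure D2:**
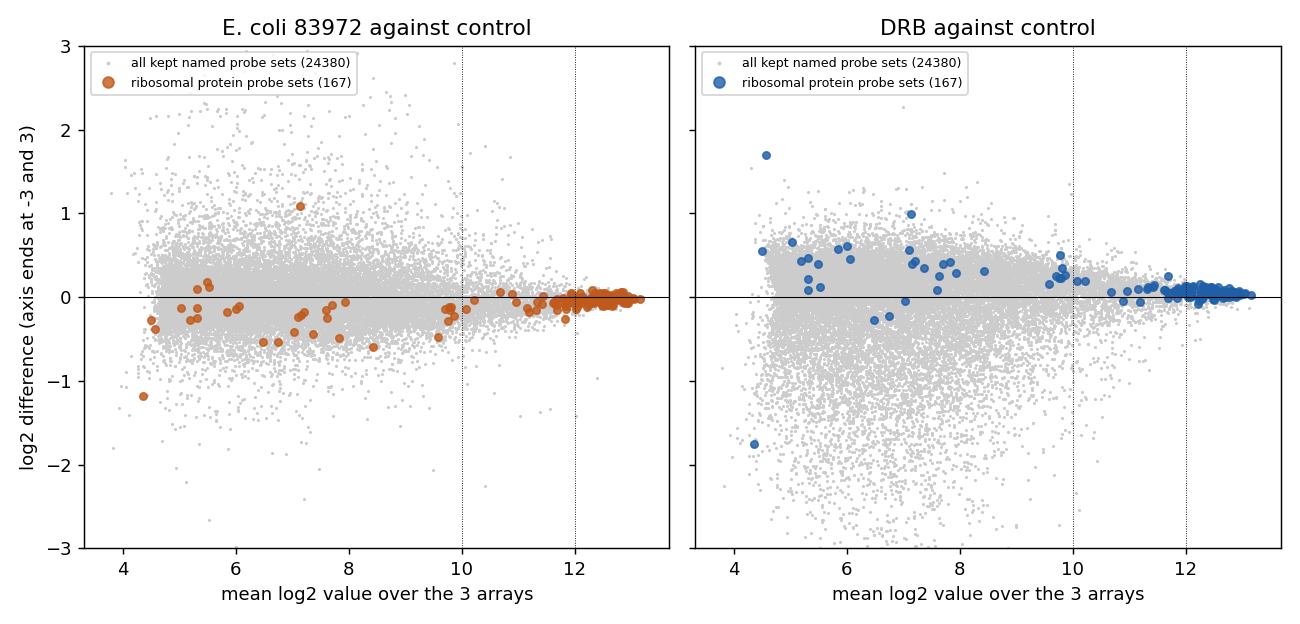
Log2 difference (vertical) against mean log2 level over the 3 arrays (horizontal) for all 24380 kept named probe sets (grey) and the 167 of ribosomal protein genes (coloured), for E. coli 83972 against control (left) and DRB against control (right), with vertical axes that end at -3 and 3 and dotted lines at levels 10 and 12. The coloured points narrow toward 0 at high level and, under 10, lie mostly above 0 with DRB (30 of 34) and below 0 with E. coli 83972 (4 of 34 above 0). Of these 34, 4 reached the filter on 1 array alone.

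The same contrast appeared within single genes. For 16 genes both a brightest probe set at 12 or above and at least 1 kept probe set under 10 were measured, with 27 dim probe sets in all. The median difference with DRB against control was 0.05 for the bright and 0.40 for the dim probe sets, and with E. coli 83972 against control it was -0.01 for the bright and -0.21 for the dim ones. The dim probe set was the larger in size for 25 of 27 with DRB and for 26 of 27 with E. coli 83972. It lay above its bright partner for 22 of 27 with DRB and below it for 23 of 27 with E. coli 83972. A filter on the highest of 3 values favours large differences among dim probe sets, and 4 of the 27 reached it on 1 array alone. With a filter on the mean of the 3 values, chosen after seeing the data, 24 dim probe sets of the same 16 genes had medians of 0.39 with DRB, where 21 lay above 0, and -0.18 with E. coli 83972, where 3 did.

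RPS15A, a 40S protein, illustrates this: its brightest probe set read 0.06 above control with DRB, while one of mean level 9.78 read 0.50 above. RPL32, a 60S protein, gave 0.09 by its brightest probe set and 0.46 and 0.47 by its dim ones. RPL10, a 60S protein placed late in assembly, went the other way with DRB, at 0.01 by the brightest and -0.23 and -0.28 by the dim probe sets. Whether the dim probe sets read the same transcripts as the bright ones was not tested.

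**Figure D3:**
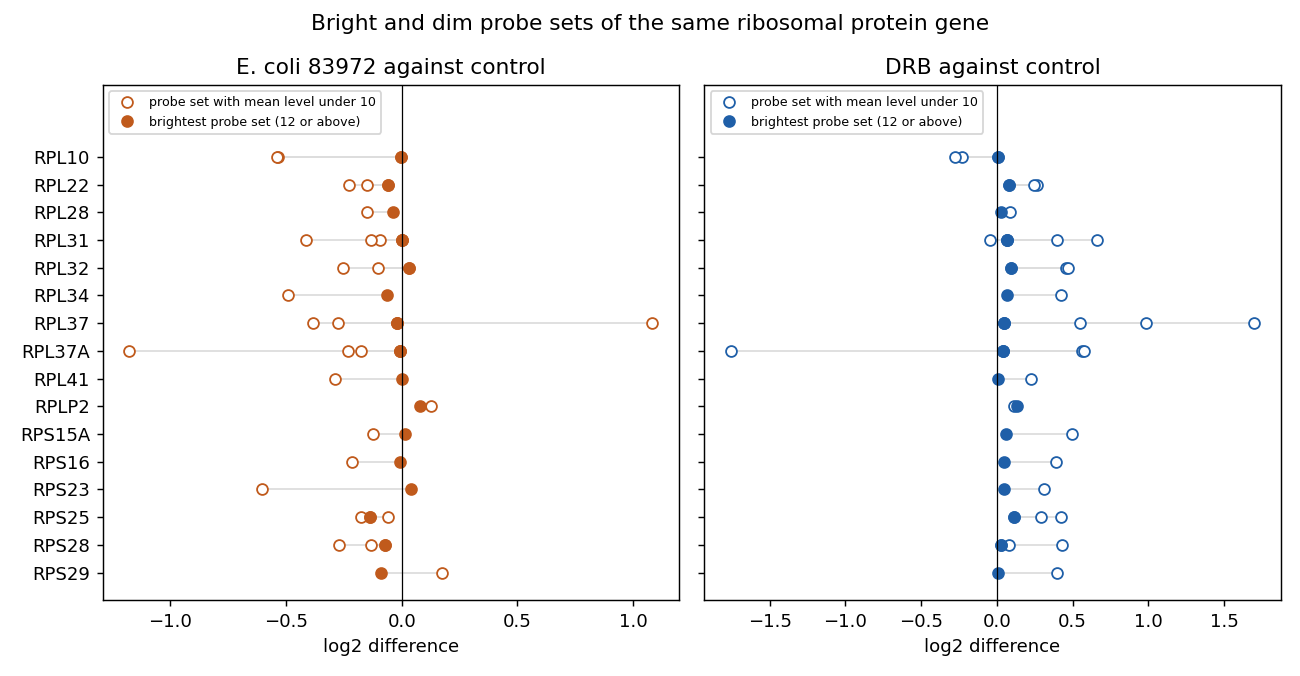
Log2 difference for E. coli 83972 against control (left) and DRB against control (right) in the 16 ribosomal protein genes that have a brightest probe set at 12 or above (filled) and kept probe sets with mean level under 10 (open, 27 in all), 1 row per gene. Filled points lie close to 0, while open points lie farther out, mostly below 0 with E. coli 83972 and above 0 with DRB.

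By the largest SD of the difference over kept probe sets in any of the 3 comparisons, probe sets disagreed most for RPL34, RPL37, RPL37A, RPS16 and RPS23. RPL37, a zinc-binding 60S protein, had 5 kept probe sets, with DRB differences from 0.05 to 1.70 against control and a mean of 0.67 ± 0.69 (SD). Of these, 2 reached the filter on the DRB array alone, where they read high, so this range and mean are a description of what the filter let through. Its brightest probe set read 13.02 with E. coli 83972, 13.09 with DRB and 13.04 in the control. One of its dim probe sets read 7.53 with E. coli 83972, 7.43 with DRB and 6.44 in the control, and another read 3.75, 5.84 and 4.14. RPL37A, also of the 60S subunit, had 4 kept probe sets, with DRB differences from -1.76 to 0.57. The lowest of these, which reached the filter on the control array alone, read 4.16 with E. coli 83972, 3.58 with DRB and 5.34 in the control, while its brightest read 13.02, 13.07 and 13.02.

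These 3 dim probe sets of RPL37 and RPL37A were the only ones of the 167 to reach a 2-fold difference in any comparison. RPL34 and RPS23 had the low values of E. coli 83972 in common: their dim probe sets differed from control by -0.49 and -0.60, against -0.06 and 0.04 by the brightest. RPS16 had 2 kept probe sets, at 0.04 and 0.39 with DRB. Of the 167 kept probe sets 93 carry the suffix x and 40 the suffix s, which the manufacturer uses for probe sets that may cross-hybridize or that match several transcripts. Ribosomal protein genes have many processed pseudogenes of near-identical sequence, so values of such probe sets are uncertain as to the copy read.

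Across genes, the DRB difference of the members was smaller at higher level, with a Pearson r of -0.62 and a Spearman rho of -0.44 over 67 genes. The E. coli 83972 difference against control went the other way, at 0.61 and 0.30. Over the 167 kept probe sets of the members, the Pearson values were -0.38 with DRB and 0.42 with E. coli 83972. Over all 24380 kept named probe sets they were 0.03 and -0.05. Genes of a single array pair are not independent replicates and share its normalization, and RPL35A and RPL36 are the only points of low level.

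RMA brings arrays to nearly one distribution, so a change shared by most messages is reduced or removed by it. The arrays carry bacterial RNA controls added in fixed amounts. The poly-A controls, added to the RNA before labelling, were higher with DRB than in the control for 24 of 24 probe sets, with a median of 0.65, and with E. coli 83972 for 20 of 24, with a median of 0.14. The hybridization controls, added after labelling, had medians of 0.21 with DRB and 0.25 with E. coli 83972 over 9 probe sets. Centring the arrays on the poly-A controls put the ribosomal protein median at -0.60 with DRB against control and at -0.17 with E. coli 83972 against control. The median of all kept genes then lay at -0.60 and -0.16, so that the distance between ribosomal protein genes and all genes was the same as before, 0.003 with DRB and -0.005 with E. coli 83972. The sign of the members' difference from control with DRB thus flipped with the scaling; the distance could not change, since centring subtracts 1 constant per array. A second quantile normalization, which can change it, moved it to -0.05 with DRB and 0.02 with E. coli 83972. Whether poly-A controls were added in equal amounts per cell or per mass of RNA is not given in the sources used here.

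**Figure D4:**
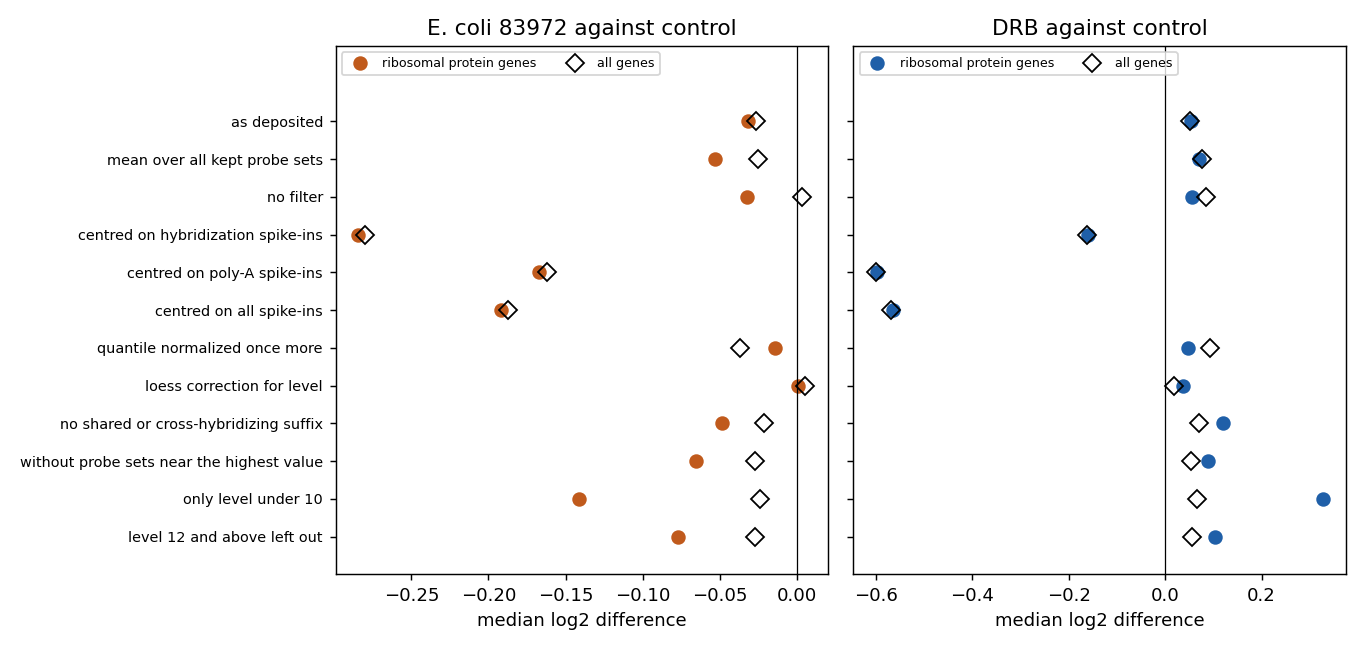
Median log2 difference of the kept ribosomal protein genes (filled circles) and of all kept genes (open diamonds) for E. coli 83972 against control (left) and DRB against control (right), 1 row per processing setting. Circle and diamond move together by construction under the spike-in settings (for DRB to -0.60 and -0.60 with poly-A controls) and part most with DRB where only probe sets with a mean level under 10 were used (0.33 against 0.07).

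Signs of RNA quality moved little. The 3' minus 5' difference of the ACTB control probe sets was 2.00 with E. coli 83972, 1.83 with DRB and 1.98 in the control, and that of GAPDH was 0.16, 0.09 and 0.08. The epithelial and kidney markers KRT18 and PAX8 were above the filter on all arrays, KRT18 at 11.55 with E. coli 83972, 11.67 with DRB and 11.63 in the control, while EPCAM was below it on all 3. Other markers of the list differed more: PAX8 read 7.23 with E. coli 83972, 6.10 with DRB and 7.07 in the control, LHX1 read 7.33, 7.09 and 8.74, and KRT19 read 7.73, 8.53 and 8.29. Of 11 such markers measured 10 were kept, with VIM the brightest at 12.76, 12.79 and 12.85 and a summed linear level of 13165 with E. coli 83972, 13722 with DRB and 14129 in the control. Of 5 leukocyte markers measured 2 were kept (sums of 569.2, 747.6 and 604.6), with PTPRC, CD14 and LYZ below the filter. Of those kept, CD68 read 8.998 with E. coli 83972, 9.406 with DRB and 9.082 in the control, above PAX8 on every array. The other, CD3E, reached the filter on the DRB array alone. Of 6 endothelial markers 2 were kept (157.3, 167.0 and 155.7), and of 6 fibroblast markers 1 (100.5, 108.2 and 99.8). The part of these values in the differences was not tested.

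Paralogs of ribosomal proteins, which carry other symbols, were more spread than the ribosomal protein genes. Of 8 listed 7 were kept, with medians of -0.16 with E. coli 83972 and -0.04 with DRB against control, and none reached 2-fold. RPL7L1 read 9.49 with E. coli 83972, 8.96 with DRB and 9.33 in the control and was the lowest with DRB, by 0.38. RPL39L, known from mouse as a testis form of RPL39, read 8.79, 9.04 and 9.11 and was the lowest with E. coli 83972, by 0.33. RPS27L, a p53-responsive paralog of RPS27, differed by -0.16 and -0.04, RPL36AL by -0.16 and -0.05, RPL26L1 by -0.16 and 0.16, RPL22L1 by -0.01 and 0.01, and RPL10L by 0.07 and 0.35, with E. coli 83972 first in each pair. RPL10L read 4.70 with E. coli 83972, 4.98 with DRB and 4.63 in the control. It reached the filter on the DRB array alone, so its 0.35 describes what the filter let through. RPL3L did not pass the filter. RACK1, a 40S protein outside the symbol rule, was not analysed here.

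Other messages of the TOP class had medians close to those of the ribosomal protein genes and also to those of all kept genes, -0.03 and 0.05. All 16 listed translation factors and related genes were kept, with medians of -0.02 with E. coli 83972 and 0.05 with DRB against control, and none reached 0.5. EEF1A1, the elongation factor that brings aminoacyl-tRNA, read 12.84 with E. coli 83972, 12.82 with DRB and 12.82 in the control. EIF4B, an initiation factor, was the highest with DRB, at 9.17, 9.58 and 9.27 on the same arrays, or 0.31 above control. A tract met the criterion at 9 of their 11 listed starts. The 15 housekeeping genes likewise had medians of -0.05 and 0.06 and none reached 2-fold; PKM at 0.46 with DRB was the farthest from 0.

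Many of the factors that build the ribosome were low with DRB. Of 102 ribosome biogenesis factors 98 were kept, with a median of -0.26 with DRB and 0.03 with E. coli 83972 against control. With DRB 17 of the 98 were at least 2-fold lower and 0 higher, beside the shares of 10.2% and 0.129% of all kept genes given above. UTP23, a factor of early 40S processing, read 7.70 with E. coli 83972, 5.14 with DRB and 8.14 in the control, so that DRB differed from control by -3.01. MPHOSPH10, of the U3 snoRNA complex, read 9.05, 6.87 and 8.90, and IMP3, its partner, 8.82, 7.89 and 9.62. RRS1, which brings the 5S particle to the 60S precursor, read 9.47, 8.11 and 9.69. In all 4 the DRB difference from control was -1.58 or lower, and the lowest kept ribosomal protein gene with DRB was RPL5, at -0.05. A tract met the criterion at 17 of 100 listed starts of these factors.

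Mitochondrial ribosomal protein genes, the other ribosomal set, numbered 76 kept, with medians of -0.16 with E. coli 83972 and -0.06 with DRB. Their SD over genes with DRB was 0.32, against 0.055 in the cytosolic set, and 2 were at least 2-fold lower with DRB, MRPS30 at -1.42 and MRPS31 at -1.13. With all kept genes the share at least 2-fold lower with DRB was 10.2%. For E. coli 83972 against control 14 of 76 lay above 0, beside 45.2% of all kept genes.

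Genes that govern the TOP class and the ribosomal protein promoters were more spread than the ribosomal protein genes. Of 19 regulators of TOP translation 2 were at least 2-fold lower with DRB, a share close to the 10.2% of all kept genes. RICTOR, a subunit of mTORC2, read 9.08 with E. coli 83972, 7.09 with DRB and 8.41 in the control, and TSC1, a brake on mTORC1, 7.24, 6.26 and 7.50. LARP1 read 11.43, 11.19 and 11.38, a DRB value 0.19 below control. DDIT4, a stress-induced mTORC1 inhibitor, was 0.69 higher with E. coli 83972 and DEPTOR, another inhibitor, 0.62 higher with DRB, both against control. Of 7 promoter factors, SP3 and TBP were at least 2-fold lower with DRB, at -1.65 and -1.32, beside 10.2% of all kept genes. With DRB GABPA differed by -0.36 and YY1 by -0.17, and E2F1 was the only 1 of the 7 above control, by 0.32. Among 6 chaperones of ribosomal proteins none reached 2-fold against control, with PDCD2L, a relative of the RPS2 chaperone PDCD2, farthest at -0.97 with DRB.

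The immediate early genes, short-lived messages listed for contrast, held many 2-fold differences. Of 25 listed 22 were kept, 8 of them at least 2-fold lower with DRB and 8 at least 2-fold higher with E. coli 83972, both against control. The shares of all kept genes were 10.2% and 1.91%. MCL1, a survival factor, read 9.94 with E. coli 83972, 6.80 with DRB and 9.80 in the control. IER5 read 8.76, 5.52 and 8.54. DUSP1, a phosphatase of stress kinases, read 9.91, 6.19 and 6.88, and ATF3, a stress transcription factor, 10.23, 6.89 and 7.31. Beside these, the kept ribosomal protein gene farthest from control was RPL35A, at -0.48 with E. coli 83972.

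**Figure D5:**
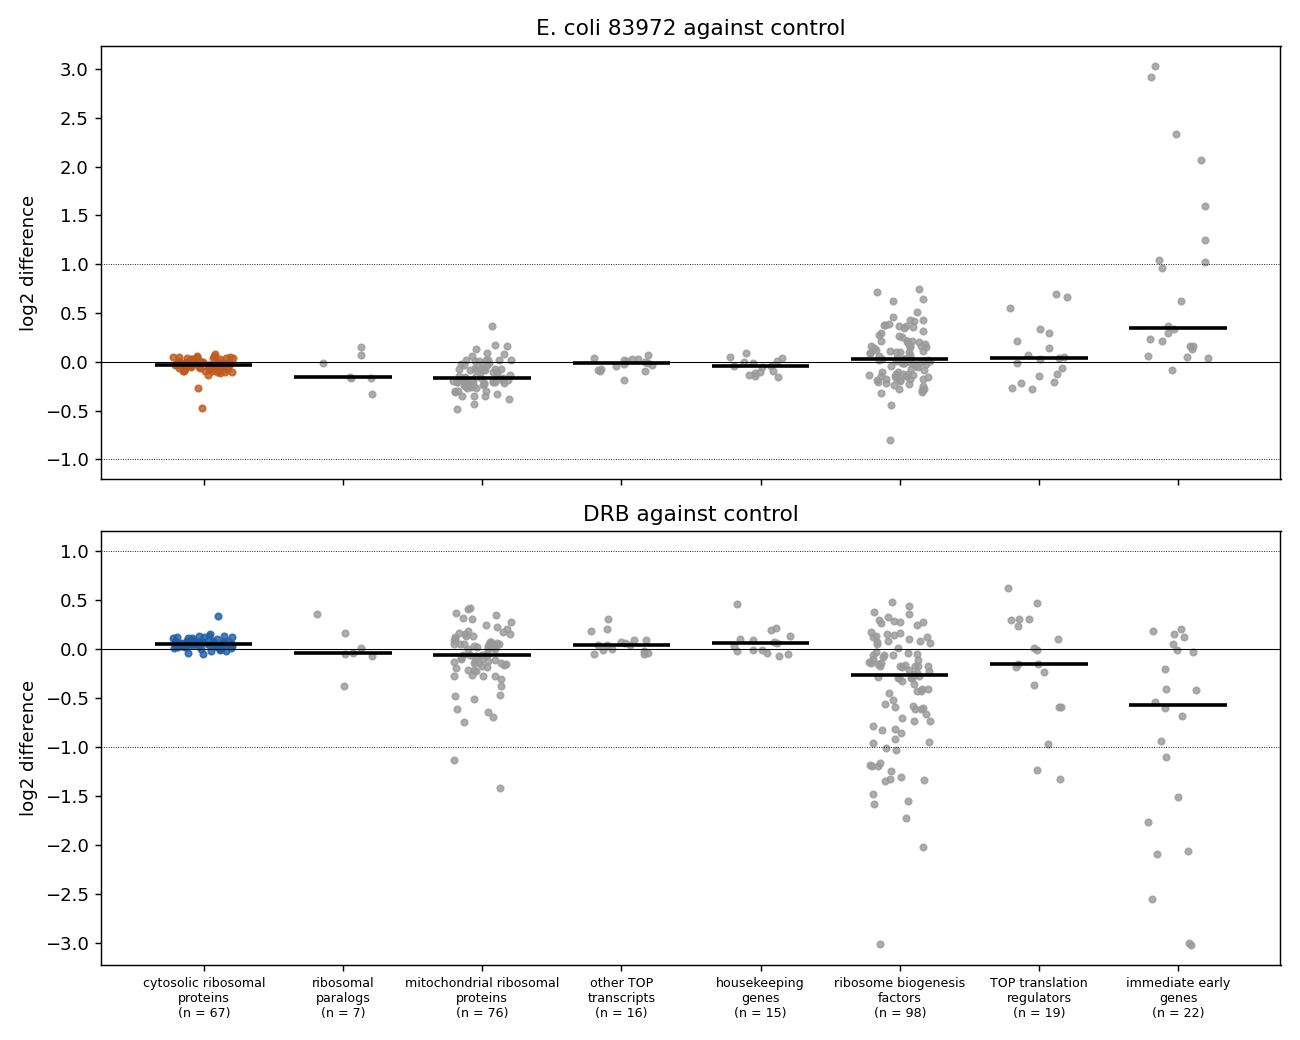
Log2 difference of each kept gene (points) and its median (bar) for the cytosolic ribosomal protein genes and 7 comparison lists, with E. coli 83972 against control above and DRB against control below, dotted lines at a 2-fold difference, and sideways scatter only to separate points. The cytosolic ribosomal protein genes form the tightest column in the DRB panel (SD 0.055), whereas 17 of 98 ribosome biogenesis factors and 8 of 22 immediate early genes lie at or beyond 2-fold lower with DRB. Of all kept genes 10.2% do. The lists were not matched for level.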

How the data were processed

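Messenger RNA of 3 A498 cultures (E. coli 83972, DRB, control) was measured on 1 Affymetrix 3' expression array each. The deposited values are log2 probe-set values that the authors made with RMA and Partek, per the submitters' processing notes. The sources used here give neither versions nor which arrays were normalized together. Probe sets were named through the platform annotation and updated through Entrez identifiers (45178 of 45259 with 1 symbol); those with several symbols name no gene, which left out 9 probe sets listing a ribosomal protein gene. No further normalization or pseudocount was applied.

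A difference is one array's log2 value minus another's, and both treated arrays share the control array. Each gene was represented by its brightest probe set by mean level and kept when its highest value reached the median of all values, 4.88. Genes were counted at 1 (2-fold) and 0.5 on the log2 scale. Genes named are the 10 highest and 10 lowest kept members per comparison, the members of the role groups, the 5 genes whose probe sets disagreed most, and up to 4 genes of each other list; others named, such as LARP1, GABPA, YY1, EEF1A1, KRT18, RPS15A and RPL32, were chosen after their values were seen. The members and the 19 gene lists were chosen with earlier results of these data known, so they support nothing independently. With 1 array per group no test was run, and groups could not be checked for batches. The scripts for differences and counts were tested on simulated data. The alternatives tried were the mean over kept probe sets, no filter, 3 spike-in centrings, a second quantile normalization, a loess correction for level (span 0.3), probe sets without shared or cross-hybridizing suffixes, removal of probe sets within 1 of the highest value, platform symbols and, chosen after seeing the data, 2 restrictions by level. A relation with protein length was planned and not run, since no protein table was used here. Promoter windows came from RefSeq, GRCh38.p14. Software was Python 3.11.15 with pandas 2.3.3, NumPy 2.4.6, SciPy 1.17.1, statsmodels 0.14.6 and matplotlib 3.10.9.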

Additional observations from a re-analysis of the deposited data

Results flagged for a closer look

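The array's own control probe sets for ribosomal RNA, which enter no comparison above, read higher on the treated arrays than on the control array at some positions and not at others. For 18S ribosomal RNA, E. coli 83972 was above control by 0.3129 on the log2 scale at the 5' probe set and by 0.3941 at the middle one, and by 0.04 at the 3' one. For 28S ribosomal RNA, the 5' probe set was above control by 0.5812 with E. coli 83972 and by 0.5565 with DRB, while the middle one differed by -0.07 and 0.14. These were picked out as signals outside the main measurement that exceed the control array; ribosomal RNA has no poly-A tail, and what these probe sets read was not tested.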

How the results depend on the processing

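Without replicates, stability can be described only across processing settings. As reported, 19 of 67 ribosomal protein genes lay above 0 with E. coli 83972 against control, 61 with DRB against control, and 1 where E. coli 83972 was set against DRB. At 0.5 or more the counts were 0, 0 and 1, and at 2-fold they were 0 in all 3 comparisons. Centring on hybridization controls put the medians at -0.28 with E. coli 83972 and -0.16 with DRB (control subtracted), with 0 and 1 genes above 0, 0 above 0 for E. coli 83972 against DRB, and 2 genes at 0.5 with E. coli 83972. Centring on poly-A controls gave medians of -0.17, -0.60 and 0.44 in the 3 comparisons, with 0, 0 and 66 genes above 0 and 1, 65 and 9 at 0.5. Centring on all controls gave -0.19, -0.56 and 0.38, with 0, 0 and 66 above 0 and 1, 59 and 0 at 0.5. The median of all kept genes moved by the same amount under each of these centrings.

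A second quantile normalization left 4 genes above 0 for E. coli 83972 against DRB. The loess correction left 18 there and 34 with E. coli 83972 against control. The mean over probe sets gave 0 above 0 and 3 at 0.5 for E. coli 83972 against DRB, and 1 at 0.5 with DRB over control. With no filter RPL27A was added, which gave 1 gene at 0.5 with E. coli 83972 against control, and 2 at 0.5 and 1 at 2-fold for E. coli 83972 against DRB. Using only probe sets without shared or cross-hybridizing suffixes left 25 genes, with 6 above 0, 2 at 0.5 and 1 at 2-fold with E. coli 83972, 24 above 0 and 3 at 0.5 with DRB, both against control, and 6 at 0.5 for E. coli 83972 against DRB; the medians in the 3 comparisons were -0.05, 0.12 and -0.15, against -0.02, 0.07 and -0.09 over all genes. Leaving out probe sets near the highest value left 44 genes, with 12 above 0, 2 at 0.5 and 1 at 2-fold with E. coli 83972, 37 above 0 and 2 at 0.5 with DRB, and 4 above 0 and 7 at 0.5 for E. coli 83972 against DRB, and medians of -0.07, 0.09 and -0.14. Leaving out levels of 12 and above left 37 genes, with 8, 3 and 1 in the same order with E. coli 83972, 32 and 2 with DRB, and 4 and 7 for E. coli 83972 against DRB. Levels under 10 alone left 20 genes, with 4, 3 and 1 with E. coli 83972, 19 and 2 with DRB, and 2 and 9 for E. coli 83972 against DRB, and medians of 0.33 with DRB against control and -0.49 between the E. coli 83972 and DRB arrays. Where a setting leaves fewer genes, counts fall by construction; the cause of the other shifts was not tested. Symbols as the platform lists them changed none of these values.

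No paired analysis was possible because each group has 1 array. The 404 named-gene values that moved by less than the probe-set error and the 197 that moved by more, of which 160 under the 3 centrings, are not listed. Signal near the highest value, dim probe sets and 1 control array shared by both treatments limit every difference given here.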
